A study of Drosophila melanogaster with 2 samples.

Results

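Nicotinic acetylcholine receptors are cation channels built from several subunits around a central pore, and they carry most fast excitatory transmission in the insect brain. An alpha subunit is defined by a pair of adjacent cysteines in the acetylcholine binding site, which a beta subunit lacks. Several of the fly subunits are targets of insecticides, such as the neonicotinoids and spinosad. Type II neuroblasts are neural stem cells of the larval brain whose daughters, the intermediate progenitors, divide again before they yield neurons and glia. The receptor genes are mainly genes of differentiated neurons.

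The genes described here are all those whose symbol in the authors' deposited table begins with nAcR, which are 9 of the 14284 genes counted. They are nAcRalpha-96Aa, nAcRalpha-96Ab, nAcRalpha-7E, nAcRalpha-80B, nAcRalpha-34E, nAcRalpha-30D, nAcRbeta-64B, nAcRbeta-96A and nAcRbeta-21C, now named nAChRalpha1 to nAChRalpha6 and nAChRbeta1 to nAChRbeta3 in that order. The remaining fly subunit, nAChRalpha7, is listed in that table as gfA and so falls outside the naming rule. Its values are given beside the others and enter no count of the 9. All 9 had summed counts of at least 20 in the pair of libraries, the minimum for a gene to be called measured.

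The study compared 1 control library with 1 library from brat RNAi, called the knockdown library below. Brat is a repressor of translation whose loss turns type II lineages into tumours. In both groups, flies with UAS-dicer2, wor-Gal4, asense-Gal4 and UAS-CD8::GFP were crossed to flies with tub-Gal80ts. The brat RNAi cross also carried the hairpin of VDRC line 105054. The animals grew at 18 °C, were moved to 29 °C by the third larval instar and were dissected 24 h later. GFP-positive cells, described as type II neuroblasts with the progeny of 24 h, were sorted, and polyA RNA was sequenced. The drivers are given as the labels spell them. Type II neuroblasts are known to lack asense, so this pair of drivers by itself would not single them out, and how the sort was limited to their lineages is not given in the sources used here. Counts of asense (ase) itself were 1790 in the control against 1236 in the knockdown library. The membrane GFP persists in daughter cells, and the number of animals per library is not given in the sources used here.

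The control library held 16566265 counts of genes and the knockdown library 15236504. Counts of brat itself were 12210 and 6312, a log2 ratio of -0.69 (95% counting interval -0.73 to -0.65), in the direction of the labels. Every log2 ratio below is brat RNAi over control after scaling by size factors, and every interval is exact and covers counting error only. With 1 library per group no test was possible, and each value describes these libraries rather than the genotypes. Fewer cells of a type and less RNA per cell cannot be told apart in such bulk samples. All 5 markers of the type II lineage were present, with summed levels of 1242 CPM (counts scaled to a library of 1000000) in the control against 1299 CPM in the knockdown library. The 5 neuroblast markers summed to 2230.5 CPM in the control against 2886 CPM in the knockdown library. Most of these counts were of the gene mira, with 26290 of 36951 in the control and 29722 of 43971 in the knockdown library. Intervals lay wholly above 0 for 4 of the 5, where 30.7% of all measured genes had such intervals. That of ase lay wholly below 0. The 8 neuronal markers summed to 602 and 598 CPM, the 6 glial markers to 789 and 763, and the 6 muscle markers to 28.9 and 10.7, and no marker was at 0. Most glial counts were of Eaat1 (6550 and 6191) and nrv2 (4366 and 3284), while repo had 138 and 108. The largest neuronal counts were of Csp (2933 and 2449) and elav (2783 and 2140). These sums therefore do not compare the amounts of the cell types. All 6 muscle markers were lower by 2-fold or more, against a background of 4.48% of measured genes. The part of these other cells in the receptor values was not tested.

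One subunit, nAcRalpha-34E, stood apart from the rest. It is the subunit now called nAChRalpha5, which with nAChRalpha6 and nAChRalpha7 resembles the alpha7 receptors of vertebrates. The control library held 170 counts of it and the knockdown library 436, which is 155 and 477 normalised counts. The knockdown library was thus 3.07-fold higher, a log2 ratio of 1.62 (1.36 to 1.88). It was the single member at least 2-fold higher with an interval excluding 0, that is 1 of 9, where 1.15% of all 9142 measured genes were that far higher. No member was at least 2-fold lower, where 4.48% of all measured genes were. With a threshold of 1.5-fold the count was again 1 higher and 0 lower, where 5.93% of measured genes passed upwards and 8.32% downwards. Of the 6757 measured genes whose mean normalised count reached 100, 5 had a higher ratio than nAcRalpha-34E. In the authors' deposited table its adjusted p was 0.0151, and that of each other subunit, gfA included, was 1. Those p-values rest on 1 library against 1, and the table gave such a value under 0.05 to 0.113% of its genes in the higher and 0.282% in the lower direction.

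**Figure D1:**
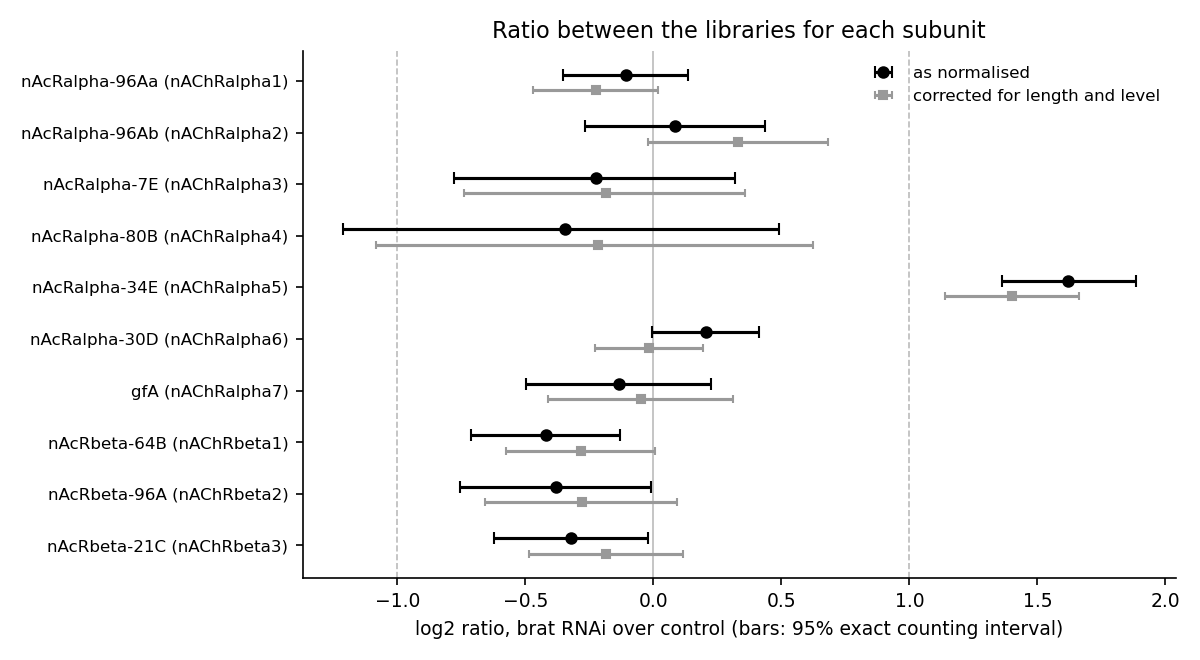
Log2 ratio of brat RNAi over control (horizontal axis) for the 9 members and gfA, with 95% exact counting intervals as bars; black points are as normalised, grey squares after correction for transcript length and level, and dashed lines mark 2-fold. The interval of nAcRalpha-34E, from 1.36 to 1.88, lies to the right of every other subunit.

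The other 5 alpha members had log2 ratios between -0.35 and 0.20, and each of their intervals held 0. The target of spinosad, nAcRalpha-30D, had the most control counts of the family, with 386 there and 371 in the knockdown library, and a log2 ratio of 0.20 (-0.01 to 0.41). Its neonicotinoid-sensitive relative nAcRalpha-96Aa had 323 and 250 counts and a ratio of -0.11 (-0.35 to 0.13). The gene nAcRalpha-96Ab had 147 and 130 counts and a ratio of 0.08 (-0.27 to 0.43). These 3 are the better counted of the 5, and none of their intervals reached a 1.5-fold difference in either direction. That of nAcRalpha-30D lay almost wholly above 0.

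The 2 scarcest members could be placed only loosely. The gene nAcRalpha-7E had 70 and 50 counts, with a ratio of -0.22 (-0.78 to 0.32). The gene nAcRalpha-80B, also known as redeye for its effect on sleep, had 32 and 21 counts, with a ratio of -0.35 (-1.21 to 0.49). At this depth the interval of nAcRalpha-80B held both no difference and a 2-fold lower level. The additional alpha subunit gfA, named for the giant fibre escape circuit, had 150 and 114 counts and a ratio of -0.13 (-0.50 to 0.23).

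All 3 beta members were lower in the knockdown library, by less than 2-fold. The gene nAcRbeta-64B, whose product pairs with several alpha subunits and is a neonicotinoid target, had 258 control and 161 brat RNAi counts, a ratio of -0.42 (-0.71 to -0.13). The gene nAcRbeta-96A had 156 and 100 counts and a ratio of -0.38 (-0.76 to -0.01). The gene nAcRbeta-21C, the most divergent member of the family, had 235 and 157 counts and a ratio of -0.32 (-0.62 to -0.02). So 3 of 9 members had an interval wholly below 0 and 1 of 9 an interval wholly above it, where the shares among all measured genes were 24.3% and 30.7%. Of all measured genes, 16.4% had a lower ratio than nAcRbeta-64B, 18.3% a lower one than nAcRbeta-96A and 21.8% a lower one than nAcRbeta-21C. After subtraction of the median ratio of genes of similar transcript length and level, the beta ratios were -0.28, -0.28 and -0.18 in the same order, and all 3 intervals then held 0.

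Summed counts were also compared between the alpha and beta members. The 3 beta members together had 649 and 418 counts, a log2 ratio of -0.37 (-0.55 to -0.19). Of these counts 235 and 157 were of nAcRbeta-21C, whose reads may be mixed with those of an overlapping gene, as described below. The 5 alpha members other than nAcRalpha-34E had 958 and 822 counts and a ratio of 0.04 (-0.10 to 0.18). The largest part of that sum, 386 and 371 counts, was of nAcRalpha-30D. The ratio of the beta sum was 0.751 times that of the alpha sum (0.641 to 0.878), a comparison that does not depend on the scaling of the libraries but does carry their trend with transcript length. Corrected for length and level in the same way, the 5 alpha members stood at -0.23 (nAcRalpha-96Aa), 0.33 (nAcRalpha-96Ab), -0.19 (nAcRalpha-7E), -0.22 (nAcRalpha-80B) and -0.02 (nAcRalpha-30D), so that 3 of them lay about as low as the beta members. The comparison was drawn up after the member values had been seen. Against the sum of the other 8 members, the ratio of nAcRalpha-34E was 3.32 times as high (2.73 to 4.05). Against each of them singly it was between 2.67 times (2.11 to 3.37) for nAcRalpha-30D and 4.10 times (3.13 to 5.40) for nAcRbeta-64B.

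The median log2 ratio of the 9 members was -0.22, and that of all measured genes was 0.00. The sum of their counts went the other way, with 1777 in the control and 1676 in the knockdown library and a log2 ratio of 0.18 (0.08 to 0.27). This sum rests on 1 gene, since without nAcRalpha-34E the counts were 1607 and 1240 and the ratio was -0.11 (-0.22 to -0.0047). The 9 genes took up 107 CPM (102 to 112) in the control against 110.0 CPM (105 to 115) in the knockdown library. The whole family was thus a similarly small part of both libraries, with a different make-up.

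That make-up was led by different subunits in each library. In the control, nAcRalpha-34E supplied 9.57% (8.24 to 11.03, exact binomial interval) of the counts of the 9 members, and in the knockdown library it supplied 26.0% (23.9 to 28.2). The share of nAcRalpha-30D was 21.7% and 22.1%, and that of nAcRalpha-96Aa was 18.2% and 14.9%. The share of nAcRbeta-64B was 14.5% in the control and 9.61% in the knockdown library. By read counts, nAcRalpha-30D was the foremost member of the control and nAcRalpha-34E that of the knockdown library. These are shares of counts, which also follow transcript length.

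**Figure D2:**
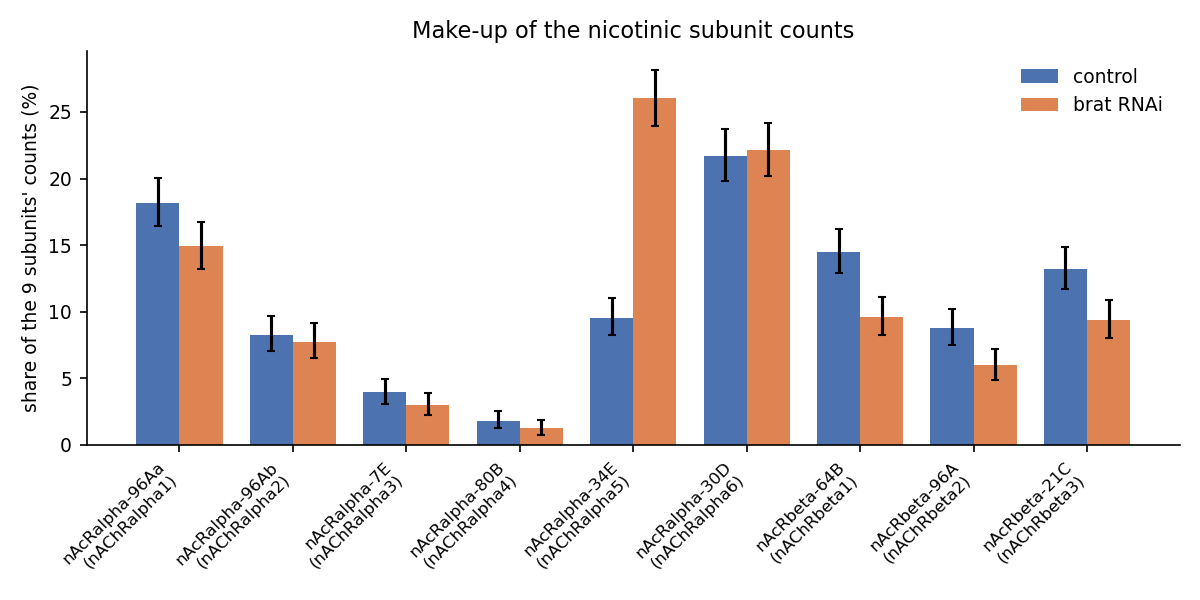
Share of the summed counts of the 9 members taken by each (vertical axis, percent), in the control (blue) and brat RNAi (orange) library, with exact binomial 95% intervals as bars. The share of nAcRalpha-34E is 9.57% in the control and 26.0% in the knockdown library.

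To compare subunits with each other, counts were divided by the median length of each gene's annotated transcripts and by library total, giving CPM per kilobase. On that scale nAcRbeta-64B at 9.50 (8.38 to 10.7) and nAcRbeta-21C at 9.26 (8.11 to 10.5) were the most abundant in the control, with overlapping intervals. The gene nAcRalpha-96Aa followed at 5.10 (4.56 to 5.68). Next came nAcRalpha-96Ab at 3.77, nAcRalpha-30D at 3.59 and nAcRbeta-96A at 3.19, whose intervals overlapped each other. The gene nAcRalpha-34E was at 1.32 (1.13 to 1.54), below all of these and above nAcRalpha-7E at 0.586 and nAcRalpha-80B at 0.494, and the last 2 were not distinguishable. The subunit gfA had 1.86.

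In the knockdown library nAcRbeta-21C and nAcRbeta-64B again headed the order, at 6.73 and 6.45 CPM per kilobase. The gene nAcRalpha-34E, at 3.69 (3.35 to 4.05), was now level with nAcRalpha-30D at 3.75 (3.38 to 4.15) and nAcRalpha-96Ab at 3.63 (3.03 to 4.31). The interval of nAcRalpha-96Aa at 4.29 (3.77 to 4.85) overlapped those of these 3 genes. Lower down were nAcRbeta-96A at 2.22, gfA at 1.54, nAcRalpha-7E at 0.455 and nAcRalpha-80B at 0.353. All 9 members lay below the median level of measured genes, which was 15.3 in the control and 14.3 in the knockdown library. For scale, the 8 neuronal markers reached from para at 2.73 and 2.98 to Csp at 83.2 and 75.6. Within that range brp had 2.91 and 3.56, Syt1 4.95 and 4.90, and elav 65.8 and 55.0.

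The order depends on the length that is used. With coding length in place of transcript length, nAcRalpha-30D was first in both libraries, at 14.8 in the control and 15.5 in the knockdown library. On that scale nAcRalpha-34E went from rank 7 at 4.08 to rank 2 at 11.4. The places of nAcRalpha-7E and nAcRalpha-80B, ranks 8 and 9, were the same in both libraries with median transcript length, longest transcript and coding length.

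**Figure D3:**
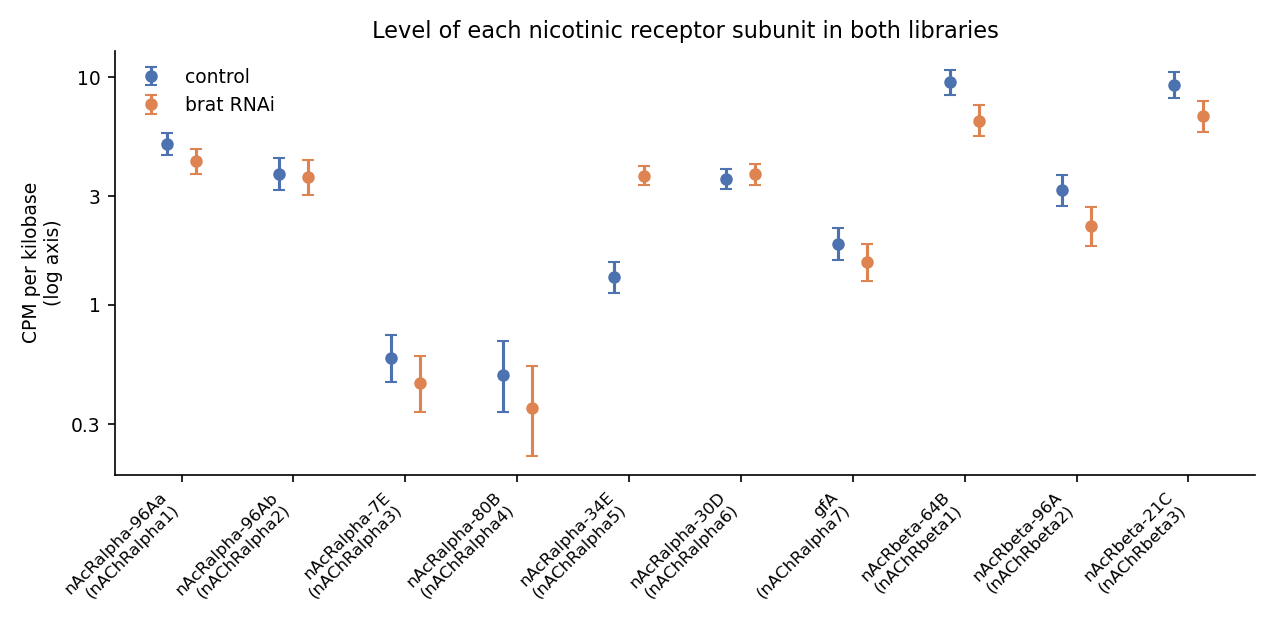
Level in CPM per kilobase of median transcript length (vertical log axis) for each subunit in the control (blue) and brat RNAi (orange) library, with exact Poisson 95% intervals as bars. nAcRalpha-34E goes from 1.32 to 3.69, while nAcRalpha-7E and nAcRalpha-80B stay lowest in both libraries.

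The ratios were read against a trend of the libraries with transcript length. The median log2 ratio of measured genes went from -0.24 in the shortest length decile to 0.32 in the longest, where nAcRalpha-34E, nAcRalpha-30D and nAcRalpha-7E belong. Subtracting the median of genes of the same length and level decile put nAcRalpha-34E at 1.399 (1.14 to 1.66), still beyond 2-fold. The same step put nAcRalpha-30D at -0.02, nAcRalpha-96Ab at 0.33 and nAcRalpha-96Aa at -0.23, with intervals that held 0. The median of the 9 members became -0.19. The genes nAcRbeta-64B and nAcRbeta-21C lie in the fourth shortest decile, whose median ratio was -0.09.

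**Figure D4:**
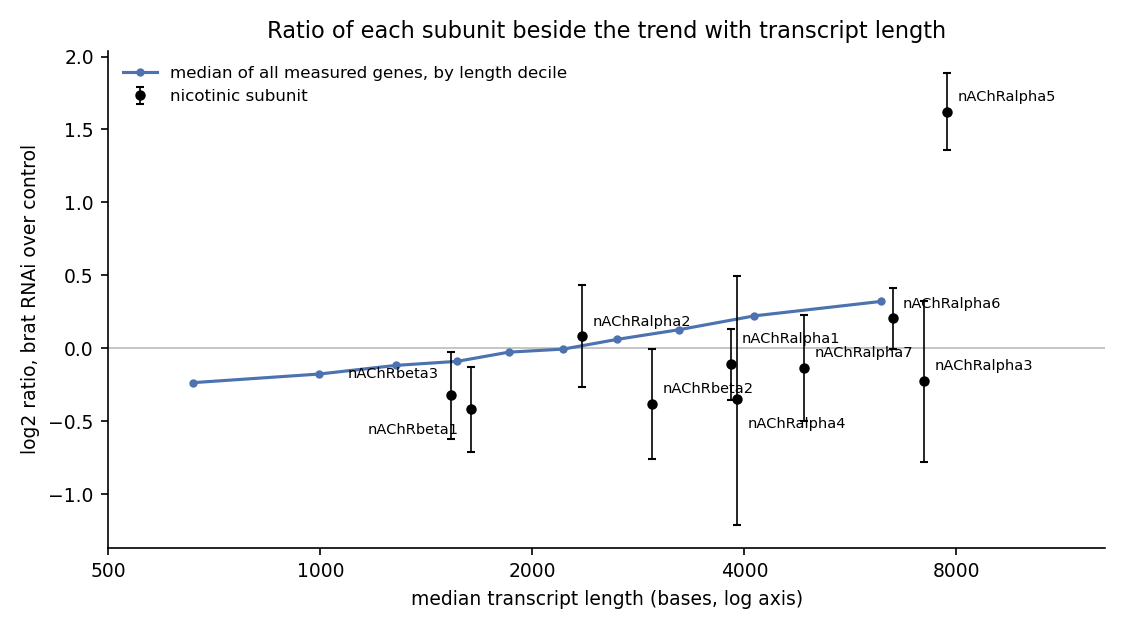
Log2 ratio of brat RNAi over control against median transcript length (log axis) for the 10 subunits (black, with 95% counting intervals, under their current names), beside the median of all measured genes in each length decile (blue line). The line goes from -0.24 to 0.32, and nAChRalpha5 (nAcRalpha-34E) at 1.62 is far above it.

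The genes beside nAcRalpha-34E on its chromosome were compared with it. The next measured genes after it on arm 2L, on the same strand, were CG16879 and CG17341, which the current annotation joins into 1 gene, CG46301. CG16879 had 1728 control and 4302 brat RNAi counts, a log2 ratio of 1.58 (1.497 to 1.66). CG17341 had 1628 and 3858 counts and a ratio of 1.51 (1.42 to 1.59). The ratio of nAcRalpha-34E was 1.03 times that of CG16879 (0.853 to 1.25) and 1.08 times that of CG17341 (0.896 to 1.31), so neither could be told from it. Both were far better counted than nAcRalpha-34E. Whether these values have a common source was not tested.

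The other genes of this neighbourhood had lower ratios. Of the 5 measured genes on each side of nAcRalpha-34E, 10 in all, CG16879 and CG17341 passed 2-fold upwards and the hemocyte gene He passed it downwards, at -1.32. Among all measured genes 1.15% passed it upwards and 4.48% downwards. Beside nAcRalpha-7E 1 neighbour passed it upwards, and beside nAcRalpha-96Aa, nAcRalpha-30D and nAcRbeta-64B 1 each passed it downwards. The gene just before nAcRalpha-34E, bgm, was at -0.80 (-1.45 to -0.18) on 69 and 33 counts. Beyond the CG46301 pair, CG43333 was at 0.15, the kinase gene smi35A at 0.11 and the laminin gene wb at 0.65. The median over the 10 was 0.13. This neighbourhood was looked at after the values had been seen, and gene order was taken from the current annotation.

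**Figure D5:**
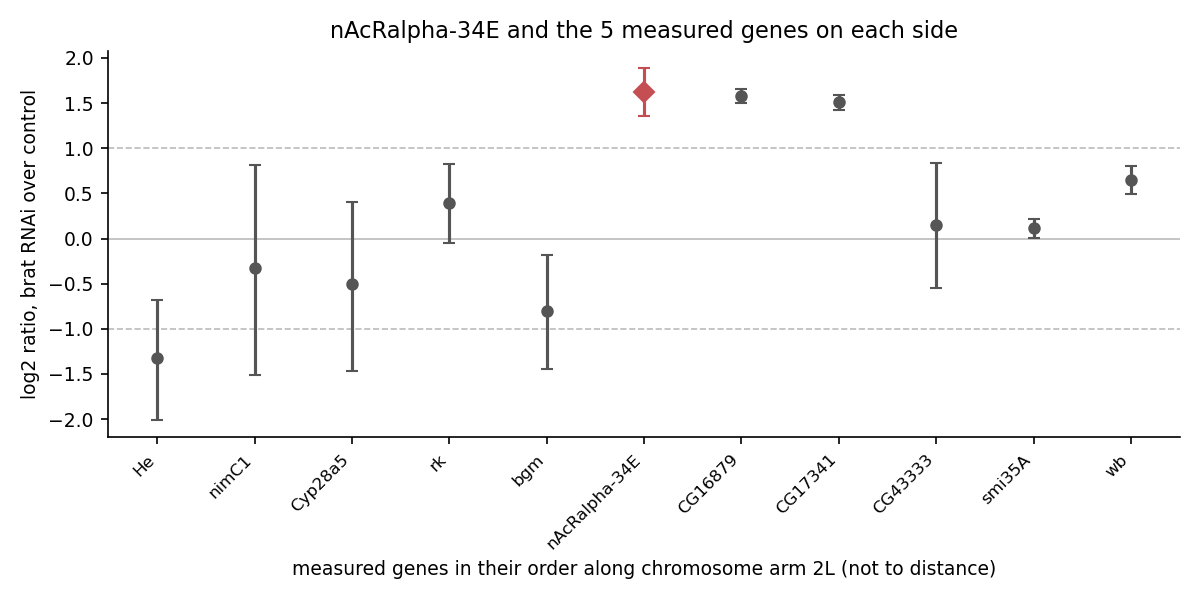
Log2 ratio of brat RNAi over control (vertical axis, bars 95% exact counting intervals) for nAcRalpha-34E (red diamond) and the 5 measured genes on each side, in their order along arm 2L; CG16879 and CG17341 are parts of 1 current gene and their mutual order is arbitrary. Those 2 and nAcRalpha-34E lie between 1.51 and 1.62, and no other gene shown exceeds 0.65.

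Other members have neighbours that bear on their values. The genes nAcRalpha-96Aa, nAcRalpha-96Ab and nAcRbeta-96A lie next to each other on arm 3R, and together they had 626 and 480 counts, a log2 ratio of -0.12 (-0.30 to 0.05). In the current annotation every exon base of nAcRbeta-21C lies within exons of Ets21C on the opposite strand, a transcription factor gene with 267 and 171 counts and a ratio of -0.38 (-0.67 to -0.10). The strand setting of the counting is not given, so reads of nAcRbeta-21C and Ets21C may be mixed, and the value of nAcRbeta-21C is uncertain. The gene nAcRalpha-7E shares 251 of 10506 exon bases with CG1636, and nAcRalpha-80B 247 of 6050 with a noncoding gene, both on the opposite strand.

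The genes whose ratio was nearest to that of nAcRalpha-34E, among the 2284 measured genes with a mean normalised count within 2-fold of it, were lama, so and vri. Their log2 ratios were 1.56 for lama, 1.30 for so and 1.23 for vri. This likeness is that of 1 ratio between 2 libraries.

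Of 4 genes that make, store and clear acetylcholine, none was 2-fold apart, and their median log2 ratio was 0.25. Among all measured genes 1.15% were 2-fold higher and 4.48% lower. Intervals lay wholly above 0 for 2 of the 4, where 30.7% of all measured genes had such intervals. Acetylcholinesterase (Ace), which breaks the transmitter down, had 131 control and 155 brat RNAi counts and a ratio of 0.50 (0.16 to 0.85). The vesicular transporter VAChT had 167 and 183 counts and a ratio of 0.39 (0.08 to 0.70). Corrected for length and level, Ace stood at 0.55 and VAChT at 0.27, and the median of the 4 genes was 0.20. The interval of VAChT then held 0, and that of Ace did not. Choline acetyltransferase (Cha) had 229 and 176 counts and a ratio of -0.12 (-0.41 to 0.17); it shares a first exon with VAChT, so reads there cannot be assigned to either. The choline transporter gene CG7708 had 172 and 154 counts and a ratio of 0.10 (-0.22 to 0.42).

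The muscarinic receptors signal through G proteins rather than as channels, and their 3 genes summed to 13.76 CPM in the control against 12.995 CPM in the knockdown library. The gene mAcR-60C had 173 and 151 counts and a ratio of 0.07 (-0.26 to 0.39), and CG7918 had 50 and 38 and -0.13 (-0.78 to 0.50). The third muscarinic gene, CG12796, had 5 and 9 counts, too few to be called measured. Of the 2 measured genes neither was 2-fold apart, where 1.15% of all measured genes were higher and 4.48% lower by as much.

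Among 3 genes that act on the receptors, none was 2-fold apart, where 1.15% of all measured genes were higher and 4.48% lower by as much. RIC-3, a chaperone of nicotinic receptor assembly, had 115 control and 69 brat RNAi counts and a ratio of -0.48 (-0.93 to -0.03). The Ly6 protein gene qvr had 182 and 168 counts and a ratio of 0.15 (-0.17 to 0.46). The RNA editing enzyme Adar, whose substrates include nicotinic subunit transcripts, had 710 and 770 counts and a ratio of 0.38 (0.23 to 0.53). Corrected for length and level, RIC-3 stood at -0.23, qvr at 0.02 and Adar at 0.22. The interval of RIC-3 then included no difference.

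The other channels of the same Cys-loop superfamily are mainly inhibitory chloride channels. Of 12 such genes 8 were measured, with a median log2 ratio of -0.34; none was higher by 2-fold or more, and 2 were lower by as much, where 4.48% of all measured genes were. Those 2 were CG6927, with 27 and 5 counts and a ratio of -2.17 (-3.90 to -0.77), and CG7589, with 49 and 20 counts and -1.03 (-1.86 to -0.25). Both are scarce, and the median ratio of all scarce genes was also below 0, at -0.41 in the lowest level decile and -0.27 in the next. The 8 neuronal markers had a median of 0.20 with none 2-fold apart. Of them 4 had intervals wholly above 0 (Syx1A at 0.62, brp at 0.43, cac at 0.39 and para at 0.27), 1 had an interval wholly below 0 (elav at -0.12), and the most abundant, Csp, was at 0.00. Among all measured genes 30.7% had intervals wholly above 0. Corrected for length and level, the neuronal median was 0.02. Syx1A then stood at 0.47, brp at 0.18, para at 0.05, cac at 0.03 and elav at -0.26. Among the 5 neuroblast markers 1 was 2-fold higher, grh at 1.25, where 1.15% of all measured genes were. The others were dpn at 0.98, wor and mira at 0.44 each, and ase at -0.27 (-0.38 to -0.17). Of the 5 type II markers none was 2-fold apart and 3 had intervals wholly above 0, with pnt at 0.91, btd at 0.47 and ham at 0.16, beside Sp1 at -0.02 and erm at -0.05. Corrected for length and level, the type II median was -0.19. Here pnt stood at 0.65, btd at 0.31, ham at -0.19, and Sp1 and erm at -0.28 each. No glial marker was 2-fold apart, with Eaat1 at 0.18 and nrv2 at -0.15. The muscle markers lay between -1.41 (Act57B) and -1.12 (Mhc), with Act87E at -1.40, Mlc1 at -1.37, Tm2 at -1.27 and Mlc2 at -1.18.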

How the data were processed

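For each library the authors deposited raw pair counts by gene. Their comparison table holds, per the file headers, base means (normalised counts, a signal), a log2 fold change with the control on top, and adjusted p-values. Per the submitters' processing notes TopHat 1.4.1, BWA 0.6.1, DESeq 1.8.3 and HTSeq were used, with no roles stated; the strand setting is not given in the sources used here. The table's header names FlyBase release r5.44. Coordinates of the current annotation (BDGP6) are therefore not printed, and it served for names, transcript lengths, exon overlap and gene order. It gave a length for 9097 of 9142 measured genes (99.5%).

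Counts were scaled by median-of-ratios size factors (1.09 control, 0.913 brat RNAi), and the resulting log2 ratios equalled the authors' 10987 finite values. Intervals are 95% exact (Clopper-Pearson for ratios and shares, Poisson for levels, conditional for ratios of ratios) and cover counting error only, since read pairs are not molecules. A gene was measured with at least 20 summed counts, and 2-fold apart where the log2 ratio reached 1 in either direction with an interval clear of 0. No test was run, as 1 library per group leaves no residual degrees of freedom. The interval script was tested on simulated counts. Pairs assigned to no single gene, 22.7% of the control and 27.2% of the brat RNAi table, stayed out.

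The members and lists were chosen with earlier results of these data known. Named were all members, brat and all genes of the 3 cholinergic lists. Of each other list the genes 2-fold apart were named, or the 2 most abundant where none was. Further markers of neurons, neuroblasts, glia and type II lineages were named after their values were seen. So were He, bgm, CG43333, smi35A, wb, Ets21C, CG1636, CG16879 and CG17341, these for their position beside a member. Promoter motifs and protein features were not analysed here. Alternatives were other scalings (total counts, TMM from edgeR 4.0.16, upper quartile), other filters, a pseudocount of 1, a 1.5-fold threshold, correction by deciles of length and level, and other lengths. Python 3.11.15 and scipy 1.17.1 were used.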

Additional observations from a re-analysis of the deposited data

Results flagged for a closer look

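The pairs that fell in no annotated feature made up 26.6% of the brat RNAi table and 22.0% of the control table, and no comparison above uses them. They are given because the share exceeded that of the control. A single library in each group does not show how far such shares vary.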

How the results depend on the processing

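The call of nAcRalpha-34E held under all 7 alternatives tried for single members, with log2 ratios from 1.399 to 1.62. The other count filters among the 7 do not change a ratio, and this gene, with 170 and 436 counts, passes each. Those filters could therefore not have altered its call. No member was 2-fold lower under any of the 7. Scaling by total counts moved the median of all genes to -0.14 and upper quartile scaling to -0.10, and the share of higher genes among those 2-fold apart was 10.4% and 12.5% in place of 20.4%, and 44.9% after correction for length and level. The summed member ratio of 0.18 was 0.036 with total counts and 0.069 with the upper quartile, and it turned to -0.11 with nAcRalpha-34E left out, which also left 0 members 2-fold higher. The direction of nAcRalpha-96Ab turned with total counts (-0.06) and the upper quartile (-0.024), and that of nAcRalpha-30D after correction for length and level (-0.02); neither interval excluded 0 to begin with. With total counts the interval of nAcRalpha-96Aa lay wholly below 0 (-0.49 to -0.0062). The other Cys-loop channels had 1 member 2-fold apart with a minimum of 50 counts, after correction, or with the pseudocount, and 3 with total counts or the upper quartile. After correction the neuroblast markers had 0 and the muscle markers 3. With the longest transcript, 3 of 9 members kept their place in the order of control levels, and with coding length 3 did there and 5 in the brat RNAi library. Adding gfA or leaving out nAcRbeta-21C, both chosen after seeing the data, changed no count of members 2-fold apart. No paired analysis was possible because each group is 1 library, and none could be left out. Depth limits nAcRalpha-80B and nAcRalpha-7E most.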
